A study of Homo sapiens with 6 samples.

Results

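The genes described here encode plasminogen activators, their cell-surface receptors and serpins that inhibit them. They are PLAU, PLAUR, PLAT, SERPINE2, SERPINB2, ANXA2 and S100A10, chosen by name with earlier results of these data known. All 7 were among the 58478 genes into which the transcript table was summed. They were also among the 17396 genes that passed a filter on low counts. The data are 6 RNA-seq libraries labelled Huh7, an established line from a human hepatocellular carcinoma, with genotype given as WT. In 3 libraries the cells had been kept in hypoxia (1% oxygen) and in 3 in normoxia (21% oxygen), for 24 h in each case. The design allows 1 comparison, hypoxia against normoxia. Nothing in the labels says how the cultures of a condition were kept apart, and a p-value therefore speaks only of the scatter among these 6 libraries of 1 line.

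Urokinase (PLAU) and tissue-type plasminogen activator (PLAT) are serine proteases that cut plasminogen, a protein made mainly by hepatocytes and present in serum, into the active protease plasmin. Plasmin dissolves fibrin and cleaves matrix proteins. The urokinase receptor (PLAUR), held in the membrane by a lipid anchor, concentrates urokinase at the cell surface, and annexin A2 (ANXA2) with its partner S100A10 forms a surface complex that binds plasminogen and tissue-type activator. Serpins stop these proteases by forming covalent complexes with them. SERPINE2 acts on thrombin, urokinase and tissue-type activator, and SERPINB2 on urokinase and tissue-type activator, although much SERPINB2 stays inside the cell.

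The libraries held 37621426 to 40794783 expected counts each. Levels of single genes across libraries are given as CPM, counts scaled to library size (edgeR), and levels set against each other between genes as FPKM, which also divides by transcript length. Among 12 hepatocyte markers, 9 stayed below 1 CPM in hypoxia and normoxia alike, and AFP, APOA1, TTR and GPC3 had no count at all. Most defining hepatocyte mRNAs were thus absent or nearly absent from libraries labelled Huh7. The identity of the cells rests on that label alone and was not tested. The 3 hepatocyte markers that could be tested rose with the genes described here, and their part in the changes was not tested. SERPINA1 could pass the filter on low counts only through its hypoxia libraries, so its place among the risen was set by the filter. HNF4A had 7.01 ± 0.702 CPM in hypoxia and 1.3 ± 0.181 CPM in normoxia, TF 12.1 ± 1.32 CPM in hypoxia and 8.24 ± 0.765 CPM in normoxia, and SERPINA1 1.83 ± 0.131 CPM in hypoxia and 0.067 ± 0.063 CPM in normoxia (SD, n = 3 each). Of 5 epithelial markers, KRT8 and KRT18 were present and EPCAM, KRT19 and CDH1 were under 1 CPM in both groups.

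The sequences below show the 250 bases before the RefSeq start of PLAUR, SERPINB2, ANXA2 and S100A10 (RefSeq, GRCh38.p14, where 6 of the 7 genes had an entry), because these genes moved in the same direction and their promoters differ in which motifs they hold. Each is written on the strand of its gene, and capitals mark matches to the core of the site bound by hypoxia-inducible factors (ACGTG or GCGTG) and to the site of FOS and JUN dimers, called AP-1 (TGANTCA), on either strand.
PLAUR, chr19:43670170-43670419, minus strand: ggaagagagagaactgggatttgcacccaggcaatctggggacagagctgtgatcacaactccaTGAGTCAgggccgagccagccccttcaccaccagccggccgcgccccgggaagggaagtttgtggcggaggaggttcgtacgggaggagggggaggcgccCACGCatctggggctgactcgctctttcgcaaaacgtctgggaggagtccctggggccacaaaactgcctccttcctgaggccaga
SERPINB2, chr18:63887455-63887704, plus strand: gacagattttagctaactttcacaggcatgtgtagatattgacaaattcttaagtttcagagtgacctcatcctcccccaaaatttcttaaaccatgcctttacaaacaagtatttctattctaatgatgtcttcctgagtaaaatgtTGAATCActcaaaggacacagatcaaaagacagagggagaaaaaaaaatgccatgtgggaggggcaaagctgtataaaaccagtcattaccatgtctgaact
ANXA2, chr15:60397987-60398236, minus strand: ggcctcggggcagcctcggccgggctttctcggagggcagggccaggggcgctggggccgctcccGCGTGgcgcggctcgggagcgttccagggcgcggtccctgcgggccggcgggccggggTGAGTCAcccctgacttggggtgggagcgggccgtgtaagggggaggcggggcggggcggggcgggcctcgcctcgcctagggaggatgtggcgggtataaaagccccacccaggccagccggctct
S100A10, chr1:151993860-151994109, minus strand: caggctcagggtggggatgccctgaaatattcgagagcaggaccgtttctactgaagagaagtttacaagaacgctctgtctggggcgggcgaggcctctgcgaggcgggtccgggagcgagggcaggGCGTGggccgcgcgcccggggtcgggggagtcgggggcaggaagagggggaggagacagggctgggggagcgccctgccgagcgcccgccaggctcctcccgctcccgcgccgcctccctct
An AP-1 match stood 186 bases before the start of PLAUR, 102 bases before that of SERPINB2 and 127 bases before that of ANXA2, and the S100A10 window had none. The windows of PLAU and of both SERPINE2 starts, not shown, also had none. A part of AP-1 in any of the changes was not tested. Over 34943 promoters of the same length in the RefSeq table, 6.59% held an AP-1 match. The hypoxia response core was present 86 bases before the start of PLAUR, 185 bases before that of ANXA2 and 122 bases before that of S100A10. Among the windows not shown, it was present at both SERPINE2 starts and 113 bases before the PLAU start at 73911132. It was also common elsewhere, at 43.2% of all promoters, and the SERPINB2 window had no match to these letters. A TATA box (TATAAA, on either strand) lay 30 bases before the SERPINB2 start and 31 bases before the ANXA2 start, a motif found in 10.8% of all promoters. The windows also differed in base composition, with 37.2% G and C in SERPINB2 and 78% in ANXA2. A match of letters is a description and not evidence of binding. In GENCODE release 29, the most abundant SERPINE2 transcript starts 7810 and 648 bases upstream of its RefSeq starts. Both SERPINE2 windows therefore lie downstream of the start of that transcript. The most abundant PLAUR and S100A10 transcripts start 181 and 531 bases farther upstream in GENCODE release 29 than in RefSeq. Their deposited lengths were 180 and 531 bases shorter than in release 29, so the deposited table did not use the release 29 form of these transcripts.

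Hypoxia was accompanied by higher mRNA of 6 of the 7 genes. Of these, 5 were at least 2-fold higher, and in 6 of 7 every hypoxia library lay above every normoxia library, which held for 38.1% of all genes tested. SERPINB2 had the largest fold, 15.5, followed by SERPINE2 with 5.81, PLAUR with 4.54, S100A10 with 3.58, PLAU with 2.94 and ANXA2 with 1.57. PLAT did not pass the test. This comes from edgeR's quasi-likelihood test with Benjamini-Hochberg adjustment over all 17396 genes at a threshold of 0.05. Such changes were common, since 72.8% of all genes tested changed, 36.5% rose and 17.5% rose at least 2-fold. The median log2 change was 1.84 over the 7 genes and 0.02 over all genes. Because the 7 genes were chosen with earlier results of these data known, these contrasts with all genes are descriptions and not tests. In bulk RNA, fewer cells of a type and less RNA per cell cannot be told apart.

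**Figure D1:**
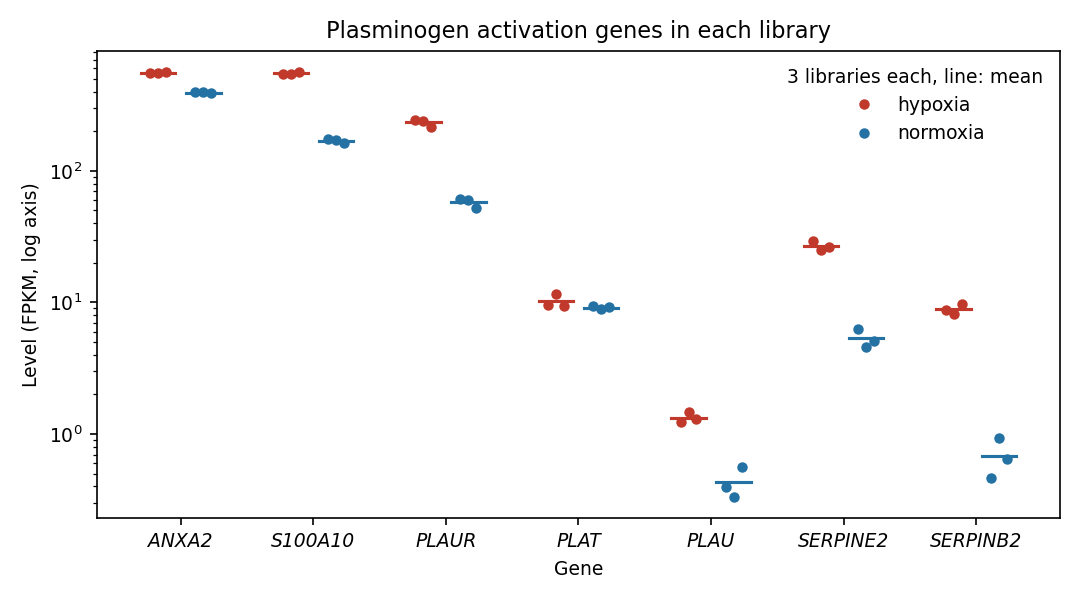
Level of each gene in each library in FPKM on a log axis, with hypoxia libraries in red and normoxia libraries in blue (points, 3 libraries per group; lines, means). The groups are clearly separated for every gene but PLAT, whose group means are 10.2 FPKM in hypoxia and 9.15 FPKM in normoxia. For PLAT the lowest hypoxia library (C6, 9.48 FPKM) lies just above the highest normoxia library (C1, 9.42 FPKM), and the groups overlap in CPM.

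Urokinase mRNA was scarce and rose, and tissue-type activator mRNA was far more abundant and did not pass the test. PLAU (ENSG00000122861.15, chromosome 10, 73909177 to 73917497 on GRCh38) had 2.19, 2.39 and 2.28 CPM in hypoxia libraries C4, C5 and C6, against 0.881, 0.55 and 0.892 CPM in normoxia libraries C1, C2 and C3. The lowest hypoxia library lay well above the highest normoxia library. The log2 change was 1.56 ± 0.236 (SE), with an adjusted p of 0.00014 in edgeR, and it rested on 76 to 83 counts per hypoxia library and 22 to 35 per normoxia library. In limma it was 0.98 on log2(FPKM + 0.5) and 0.71 on log2(FPKM + 1), scales that shrink the changes of low genes. Its exons share 916 bases with C10orf55 on the opposite strand, which had 0.019 CPM in hypoxia and 0.0085 CPM in normoxia. PLAT (ENSG00000104368.17, chromosome 8, 42175233 to 42207724) had 24.2, 29.8 and 22.9 CPM in hypoxia, against 23.3, 20.5 and 22 CPM in normoxia. The groups overlapped, since hypoxia C6 lay below normoxia C1. The log2 change of PLAT was 0.23 ± 0.098 (SE), with an adjusted p of 0.058 in edgeR. It passed without hypoxia C6 (log2 change 0.31, adjusted p = 0.0172), and without hypoxia C5 it was 0.11 (adjusted p = 0.256).

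PLAUR, the urokinase receptor (ENSG00000011422.11, chromosome 19, 43646095 to 43670547), had 330.5, 334.9 and 299 CPM in hypoxia, against 74.6, 73.3 and 64.8 CPM in normoxia. The groups were far apart, with no normoxia library near the lowest hypoxia library. The log2 change was 2.18 ± 0.065 (SE), with an adjusted p of 4.21e-10 in edgeR. Receptor mRNA far exceeded ligand mRNA in both conditions, with 233.2 ± 14.4 FPKM of PLAUR and 1.33 ± 0.115 FPKM of PLAU in hypoxia, against 57.8 ± 4.67 FPKM of PLAUR and 0.431 ± 0.117 FPKM of PLAU in normoxia (SD, n = 3 each).

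Annexin A2 and S100A10 were the most abundant of the 7 mRNAs, and S100A10 rose more. ANXA2 (ENSG00000182718.16, chromosome 15, 60347134 to 60402883) had 863.5, 892.9 and 894.8 CPM in hypoxia, against 565.3, 568.8 and 553.4 CPM in normoxia. The libraries of a group lay within a few per cent of each other and the groups were far apart. The log2 change was 0.65 ± 0.036 (SE), with an adjusted p of 4.25e-08 in edgeR. Processed copies of this gene can share its reads. ANXA2P1, ANXA2P2 and ANXA2P3 were listed with 0 counts over all 6 libraries, which cannot show whether reads from them were assigned to ANXA2. S100A10 (ENSG00000197747.8, chromosome 1, 151982915 to 151994390) had 373.5, 386.3 and 390.5 CPM in hypoxia, against 109.5, 109 and 102.6 CPM in normoxia. Its log2 change was 1.84 ± 0.043 (SE), with an adjusted p of 8.3e-11 in edgeR. In hypoxia both mRNAs stood at nearly the same level, 556.3 ± 5.89 FPKM of ANXA2 and 549.1 ± 12.3 FPKM of S100A10, whereas in normoxia ANXA2 was at 391.8 ± 4.38 FPKM and S100A10 at 169.7 ± 6.15 FPKM (SD, n = 3 each). The likeness in hypoxia depends on the transcript lengths used. The leading S100A10 transcript, S100A10-202, has a deposited length of 671 bases, against 1202 in release 29.

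Both inhibitor genes were higher in hypoxia. SERPINE2 (ENSG00000135919.12, chromosome 2, 223975112 to 224039319) had 62.7, 59.5 and 64.4 CPM in hypoxia, against 11.5, 9.79 and 10.9 CPM in normoxia. The groups did not overlap, and the log2 change was 2.54 ± 0.068 (SE), with an adjusted p of 2.2e-10 in edgeR. SERPINB2 (ENSG00000197632.8, chromosome 18, 63871692 to 63903890) had 16.6, 16.6 and 18.9 CPM in hypoxia, against 0.831, 1.42 and 1.1 CPM in normoxia. Its mRNA was thus near 1 CPM in each normoxia library and above 16 CPM in each hypoxia library. The log2 change was 3.95 ± 0.158 (SE), with an adjusted p of 3.7e-09 in edgeR. In limma on log2(FPKM + 1) it was 2.56. SERPINB2 shares 547 exon bases on the same strand with SERPINB10, which had 0.069 CPM in hypoxia and 0.025 CPM in normoxia, under the 0.0868 and 0.0757 CPM that 3 counts per library would give.

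By level in FPKM, the order in hypoxia was ANXA2 and S100A10, PLAUR, SERPINE2 (26.9 ± 2.2), PLAT (10.2 ± 1.15), SERPINB2 (8.88 ± 0.777) and PLAU. ANXA2 and S100A10 overlapped between libraries there, and so did PLAT and SERPINB2. In normoxia the order was ANXA2, S100A10, PLAUR, PLAT (9.15 ± 0.278), SERPINE2 (5.35 ± 0.899), SERPINB2 (0.682 ± 0.24) and PLAU, and only SERPINB2 and PLAU overlapped. SERPINE2 thus stood above PLAT in hypoxia and below it in normoxia, in every library.

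The balance between these mRNAs was compared as ratios of FPKM within each library. The ratio of ANXA2 to S100A10 was 1.02, 1.02 and 0.999 in hypoxia, against 2.26, 2.3 and 2.37 in normoxia, a difference in mean log2 ratio of -1.19. In ratios of counts that difference was also -1.19, whereas the level of the ratio depends on the transcript lengths used. Summed activators (PLAU and PLAT) per summed inhibitors (SERPINE2 and SERPINB2) came to 0.285, 0.392 and 0.297 in hypoxia, against 1.44, 1.67 and 1.68 in normoxia. That is a difference in mean log2 ratio of -2.31, with the summed mRNA of SERPINE2 and SERPINB2 above that of PLAU and PLAT in each hypoxia library and below it in each normoxia library. The ratio describes these 4 genes alone and not the balance of all activators and inhibitors, since other inhibitors are not in the sum. The ratio of PLAU to PLAUR was 0.0051, 0.0061 and 0.00599 in hypoxia, against 0.00649, 0.00561 and 0.0107 in normoxia, and the groups overlapped. Two-sided exact permutation tests over libraries gave p = 0.1 for the first and second ratios, the smallest that 3 against 3 allows, and p = 0.4 for the last. Adjusted over the 3 ratios, these were 0.15, 0.15 and 0.4.

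**Figure D2:**
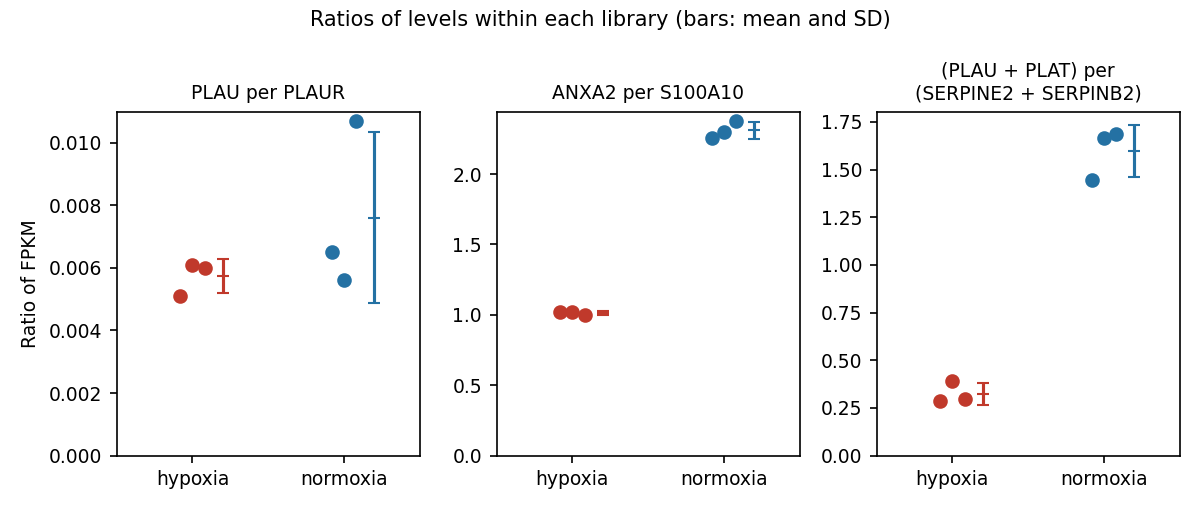
Ratios of FPKM within each library, hypoxia (red) left of normoxia (blue), with points for libraries and bars for mean and SD of 3 libraries. The ratio of ANXA2 to S100A10 lies near 1 in hypoxia and near 2.3 in normoxia, the ratio of activators to inhibitors is under 0.4 in hypoxia and over 1.4 in normoxia, and that of PLAU to PLAUR overlaps between groups.

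Transcripts of a gene did not always change in equal measure. For PLAUR, 3 protein-coding transcripts held most counts, and their coding lengths in release 29 are 335 codons (PLAUR-203), 290 codons (PLAUR-201) and 281 codons (PLAUR-202). PLAUR-203 took 82.8%, 82.1% and 81.5% of the gene's counts in hypoxia, against 74.2%, 73.8% and 76.8% in normoxia. PLAUR-202 took 5.09%, 5.38% and 6.56% in hypoxia, against 12.4%, 12.2% and 10.5% in normoxia. The shorter form therefore had a smaller share in each hypoxia library, although its own level rose (log2 change 1.10 ± 0.14 SE, against 2.29 ± 0.069 SE for PLAUR-203, each past the threshold in edgeR over transcripts).

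For ANXA2, the transcripts ANXA2-203 and ANXA2-204 both encode 339 codons and start 57 bases apart in release 29. The deposited length of ANXA2-204 is 1554 bases, against 1435 in release 29, so the form counted differs from the one described. ANXA2-203 took 53%, 51.6% and 51.5% of counts in hypoxia, against 44.3%, 43.8% and 43.8% in normoxia, and ANXA2-204 took 37.7%, 39.4% and 38.5% in hypoxia, against 46.4%, 46.6% and 46.8% in normoxia. The leading transcript was thus ANXA2-203 in each hypoxia library and ANXA2-204 in each normoxia library. Their log2 changes were 0.87 ± 0.033 (SE) and 0.35 ± 0.042 (SE), each past the threshold. Of the 30 most abundant transcripts of the 7 genes (up to 5 per gene), 7 had too few counts to be tested and 15 of the other 23 passed. Over all 63530 transcripts tested, 31.7% passed. Exact permutation tests over libraries gave p = 0.1, unadjusted, for the shares of PLAUR-203, PLAUR-202, ANXA2-203 and ANXA2-204. That is the smallest p that 3 against 3 allows, so the shares remain descriptions. The counts of transcripts that overlap this closely rest on how RSEM divided reads between them.

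**Figure D3:**
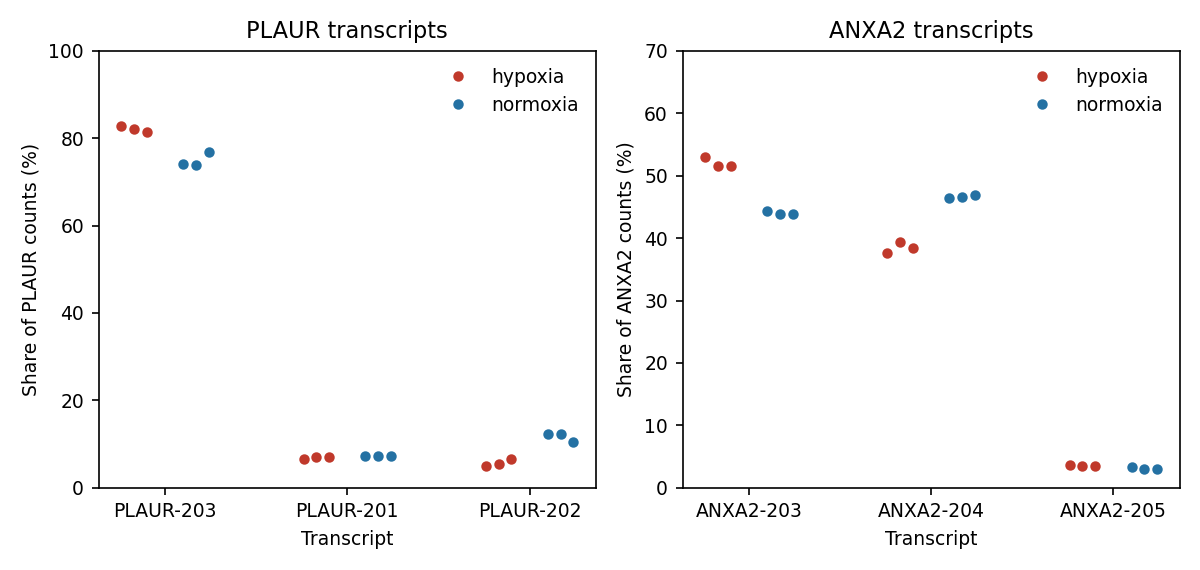
Share of each gene's counts assigned to its 3 leading transcripts, in percent, per library (hypoxia in red, normoxia in blue). PLAUR-203 has a higher share in hypoxia and PLAUR-202 a lower one, and ANXA2-203 and ANXA2-204 change places.

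Shares of some SERPINE2 and PLAT transcripts, named here from the 30 listed, also differed. SERPINE2-208, annotated as a retained intron, took 14.4%, 15.9% and 16.4% of SERPINE2 counts in hypoxia, against 12.7%, 11.9% and 12.6% in normoxia, with no overlap. PLAT-203, the leading PLAT transcript, took 55%, 56.3% and 52.1% in hypoxia, against 60.7%, 57.9% and 62.2% in normoxia, again with no overlap. Exact permutation tests over libraries gave p = 0.1, unadjusted, for SERPINE2-208 and for PLAT-203, the smallest that 3 against 3 allows. PLAT-202, with 516 codons against 562 for the leading PLAT-203, had a log2 change of 0.63 ± 0.176 (SE, adjusted p = 0.038 in edgeR over transcripts), and PLAT-203 one of 0.06 ± 0.15 (SE). PLAT-202 made up 35.6%, 25.4% and 28.7% of PLAT counts in hypoxia, against 17.7%, 25.9% and 22.7% in normoxia, so the groups overlapped. SERPINE2-202 (397 codons) held 67.4 ± 4.63% of SERPINE2 counts in hypoxia and 58 ± 7.21% in normoxia (SD, n = 3 each). Its groups overlapped, since hypoxia C4 (62.2%) lay below normoxia C1 (65.1%). SERPINB2-201 and PLAU-201 held most counts of their genes in every library, and S100A10-202 between 76.8% and 92.5%.

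Counting changes of any size past the threshold, other genes of plasminogen activation rose and fell in shares near those of all genes. The list held 47 genes besides the 7, and 31 were tested. Among these, 13 rose and 11 fell, leaving 7 short of the threshold. Over all genes tested, 36.5% rose and 36.3% fell. At least 2-fold, 9 of the 31 rose and 1 fell, where 17.5% of all genes tested rose by that much. The list's median log2 change was 0.10, where all genes had 0.02. With library totals in place of scaled sizes this list's median was -0.05 and that of all genes -0.13. Plasminogen itself (PLG) was nearly absent, at 0.0094 CPM in hypoxia and 0.0757 CPM in normoxia, and the fibrinogen chains FGA, FGB and FGG had at most 0.087 CPM in either group.

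Among listed partners of the urokinase receptor, the fibronectin receptor chain ITGA5 stood at 1421 ± 43.9 CPM in hypoxia and 193.3 ± 2.33 CPM in normoxia, a log2 change of 2.88 ± 0.04 (SE). LRP1, the endocytic receptor that clears complexes of protease and serpin, stood at 774.9 ± 34.5 CPM in hypoxia and 149.7 ± 3.13 CPM in normoxia, a log2 change of 2.37 ± 0.045. ITGB3, a chain of the vitronectin receptor, rose by a log2 change of 2.09 ± 0.177 to 5.02 ± 0.697 CPM in hypoxia, against 1.18 ± 0.15 CPM in normoxia. Its partner chain ITGAV, at 61.9 ± 3.95 CPM in hypoxia and 65.5 ± 8.36 CPM in normoxia, did not pass, nor did ITGB1, at 1127 ± 48.8 CPM in hypoxia and 1077 ± 44.4 CPM in normoxia. ITGA3, another abundant chain, fell by 0.27 ± 0.045 to 312.8 ± 16.7 CPM in hypoxia, against 378.2 ± 7.07 CPM in normoxia. ITGAV fell by 0.23 on the log2 scale with library totals and passed the threshold there (adjusted p = 0.0309).

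The lysosomal proteases CTSB, which can activate the urokinase precursor, and CTSL rose by log2 changes of 1.52 ± 0.064 and 1.06 ± 0.077. Tissue factor (F3), which starts coagulation, rose by 2.04 ± 0.078 to 32.2 ± 0.555 CPM in hypoxia, against 7.84 ± 0.7 CPM in normoxia. SERPING1, the C1 inhibitor, rose by 2.76 ± 0.135. ENO1, a glycolytic enzyme also reported as a plasminogen-binding protein at the cell surface, rose by 0.87 ± 0.032 to 3635 ± 33.8 CPM in hypoxia, against 1992 ± 25.7 CPM in normoxia. All of these passed the threshold in edgeR.

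Fallen members included A2M, a broad protease inhibitor, with 177.8 ± 4.87 CPM in hypoxia and 342.2 ± 6.38 CPM in normoxia (log2 change -0.94 ± 0.039 SE). HMGB1, a nuclear protein that also binds plasminogen and tissue-type activator, had 45.1 ± 1.5 CPM in hypoxia and 89.6 ± 2.09 CPM in normoxia (log2 change -0.99 ± 0.046). TFPI, the inhibitor of the tissue factor pathway, fell by 0.48 ± 0.055 on the log2 scale, and the uptake receptor IGF2R by 0.33 ± 0.042. PLGRKT, a membrane receptor for plasminogen named here after its values were seen, had 1.47 ± 0.158 CPM in hypoxia and 3.18 ± 0.113 CPM in normoxia (log2 change -1.11 ± 0.167). AHNAK, a scaffold protein that binds the complex of annexin A2 and S100A10 and was likewise named after its values were seen, fell by 0.12 ± 0.035 on the log2 scale to 1702 ± 52.5 CPM in hypoxia, against 1845 ± 7.67 CPM in normoxia.

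Relatives of the serpin, annexin and S100 members were compared as families. The serpin list held 30 genes outside clade E, and 14 were tested. Of those, 9 rose and 2 fell, beside 36.5% and 36.3% of all genes, and the median log2 change was 0.79. Among the 9, SERPINA1 and SERPINB7 averaged 0.067 and 0.168 CPM in normoxia. These genes could pass the filter on low counts only through hypoxia, so their place among the risen was set by the filter. Relatives of SERPINB2 on chromosome 18 went different ways. SERPINB5 (maspin) had 15.1 ± 1.47 CPM in hypoxia and 36 ± 1.83 CPM in normoxia (log2 change -1.26 ± 0.079 SE). SERPINB8 had 37.5 ± 2.75 CPM in hypoxia and 24.2 ± 0.778 CPM in normoxia (log2 change 0.63 ± 0.066). SERPINB3 and SERPINB4, near-identical copies whose reads may be divided wrongly, rose by 1.20 ± 0.114 and 1.58 ± 0.184. SERPINH1, a collagen chaperone without protease inhibition, rose by 1.18 ± 0.039 to 375.7 ± 10 CPM in hypoxia, against 165.3 ± 2.35 CPM in normoxia.

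Other annexins went both ways. Among 10 tested genes of 11 listed, 3 rose and 6 fell, beside 36.5% and 36.3% of all genes, and the median log2 change was -0.36. ANXA6 fell by 1.34 ± 0.064 on the log2 scale to 29.1 ± 1.64 CPM in hypoxia, against 73.9 ± 5.05 CPM in normoxia, and ANXA3 by 1.03 ± 0.071. ANXA1, another abundant annexin, had 138.5 ± 7.22 CPM in hypoxia and 217.9 ± 11.3 CPM in normoxia, a log2 change of -0.65 ± 0.053. ANXA5, a phosphatidylserine-binding protein, rose by 0.41 ± 0.044 to 240.4 ± 5.43 CPM in hypoxia, against 180.4 ± 7.77 CPM in normoxia. ANXA2 was the most abundant annexin in both groups by CPM.

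S100 genes were mostly higher. Among 13 tested genes of 21 listed by symbol, 11 rose and none fell, beside 36.5% and 36.3% of all genes, and the median log2 change was 0.48. In limma on log2(FPKM + 0.5), 10 rose and 1 fell. One of the 11, S100PBP, encodes a binding partner of S100P and not an S100 protein, at 52.2 ± 3.17 CPM in hypoxia and 37.3 ± 2.35 CPM in normoxia. S100A6 had 350.3 ± 27.5 CPM in hypoxia and 166.4 ± 13.7 CPM in normoxia (log2 change 1.07 ± 0.069 SE). S100A11, S100A4, S100A16 and S100P rose by log2 changes of 0.35 to 0.52, and S100A2 and S100A14, both under 9 CPM, by 1.87 ± 0.147 and 1.56 ± 0.133. S100A8 and S100A9 had 0 counts in the normoxia libraries and averaged 0.648 and 2.24 CPM in hypoxia. They could pass the filter on low counts only through hypoxia, so their place among the 11 was set by the filter. S100A13, with a log2 change of 0.17 ± 0.059, did not pass with library totals (0.02) or DESeq2 (0.16) and passed in the other direction with limma on log2(FPKM + 0.5), at -0.29 (adjusted p = 0.00298). The difference between S100A10 and the other S100 genes was not tested.

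**Figure D4:**
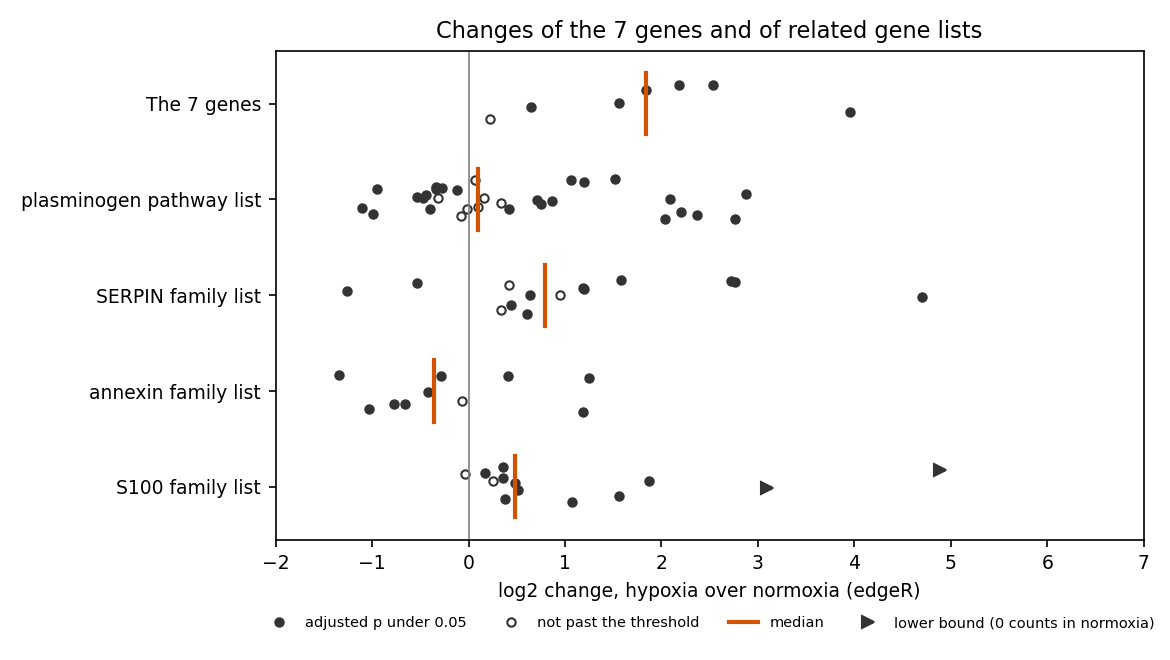
log2 change of each tested gene, hypoxia over normoxia, for the 7 genes and 4 related lists. Filled points passed an adjusted p of 0.05 and open points did not, triangles are lower bounds for S100A8 and S100A9 (0 counts in normoxia), and orange lines are medians, at 1.84, 0.10, 0.79, -0.36 and 0.48 from top to bottom.

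For each of the 7 genes, the protein-coding genes of most similar profile were those with the smallest root mean square difference in log2 CPM, each gene centred on its mean over the 6 libraries, among 10601 candidates. PLAUR was closest to SNX33 (difference 0.038), MAST4 and SH3BP2, S100A10 to SLC9A7 (0.031), and ANXA2 to RPN2 (0.018), NIT1 and EIF1. SERPINE2 was closest to PRDM1 (0.061), ARRDC3 and PPP1R3B, SERPINB2 to SPAG4 (0.105), BIRC7 and FGD5, and PLAT to RNPEPL1 (0.04). PLAU, the gene of fewest counts, was closest to ADAM8 (0.12), CTSB and LRRC27. With 2 conditions, likeness of this kind is mainly likeness in the size of the change.

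Markers of other cell types were measured beside these results, since PLAUR and SERPINB2 are also abundant in monocytes and macrophages. The 5 monocyte and macrophage markers summed to 48.1 to 57 CPM in hypoxia and 7.2 to 7.27 CPM in normoxia. CD68 made up most of this sum in both groups. LYZ, at 0.79 CPM in hypoxia and 0.512 CPM in normoxia, did not pass (adjusted p = 0.13 in edgeR). CD68 (46.4 ± 4.48 CPM in hypoxia and 6.2 ± 0.163 CPM in normoxia) and CSF1R (4.85 ± 0.377 CPM in hypoxia and 0.378 ± 0.263 CPM in normoxia) rose, whereas the pan-leukocyte gene PTPRC had 0 counts in all libraries and CD14 was at 0.087 CPM in hypoxia and 0.151 CPM in normoxia. The 5 endothelial markers summed to 5.25 to 5.82 CPM in hypoxia and 11.3 to 12.3 CPM in normoxia, with KDR at 0 counts. They did not move together, since CDH5 fell to 0.453 ± 0.0238 CPM in hypoxia, against 9.15 ± 0.504 CPM in normoxia, and PECAM1 rose to 4.86 ± 0.436 CPM in hypoxia, against 2.11 ± 0.274 CPM in normoxia. The 5 fibroblast markers summed to 58.1 to 67.3 CPM in hypoxia and 72.5 to 75.2 CPM in normoxia, with COL1A2 at 0 counts. COL1A1 made up most of this sum and fell to 56.9 ± 4.57 CPM in hypoxia, against 71.4 ± 1.26 CPM in normoxia, whereas PDGFRB rose to 6.11 ± 0.49 CPM in hypoxia, against 2.13 ± 0.209 CPM in normoxia. The part of any such cells in the changes of the 7 genes was not tested.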

How the data were processed

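The 6 libraries were made from total RNA cleared of rRNA, with a strand-specific kit and paired reads, per the labels' protocols. The tools cutadapt, HISAT2 and RSEM and the build GRCh38 (hg38) come from the submitters' processing notes, with no role or version. The annotation release and strand setting of the counting are not known here. The authors deposited 251062 transcript rows holding expected counts, which are reads divided among transcripts and need not be whole. Column names give the condition and a number (C1 to C6), and no label ties these numbers to replicates. A second set of 6 per-library columns was not used.

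Expected counts were summed per gene with GENCODE release 29, and 48155 rows without a gene there, with 6.12% to 6.39% of counts, were left out. Sums were rounded, filtered by filterByExpr, scaled by TMM and tested with edgeR 4.0.16 (R 4.3.3), two-sided, with Benjamini-Hochberg adjustment over 17396 genes or 63530 transcripts. The SE is the log2 change divided by the square root of F. FPKM was computed from these counts and the deposited lengths. Alternatives used DESeq2 1.42.0, limma 3.58.1, other filters and scalings, and each library left out. On counts simulated for this comparison (17082 genes tested), edgeR recovered 94% of 67 genes changed 1.5-fold and 100% of 67 changed 2-fold, all drawn from genes with mean counts over 200. There, 16882 genes were left unchanged, whereas 72.8% of genes passed in the real data. The simulation therefore does not test the scaling where most genes change.

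The 7 genes and the lists were chosen with earlier results of these data known. An item withheld from this text is not reported here, so the pathway and serpin lists were narrowed after values had been seen and are not complete. From each list, genes past the threshold with 5 CPM or more in a group were open to naming, up to 8 risen and 8 fallen by size of change, with the 4 most abundant that did not pass. PLG, the fibrinogen genes, PLGRKT, AHNAK, S100A8, S100A9 and S100A13 were named after their values were seen. The pathway and serpin lists share 4 genes. Floors of 3 counts cover counting error only.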

Additional observations from a re-analysis of the deposited data

How the results depend on the processing

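The direction of each of the 7 genes held under every alternative run, and the calls of PLAU, PLAUR, SERPINE2, SERPINB2, ANXA2 and S100A10 held as well. PLAT passed the threshold without a filter on low counts (log2 change 0.20) and under a filter of FPKM 0.5 (0.24). Leaving out each library in turn gave log2 changes of 0.11 to 0.31 for PLAT and 1.35 to 1.66 for PLAU. Other settings moved sizes. With library totals the log2 changes were 0.07 for PLAT, 0.50 for ANXA2 and 1.69 for S100A10, where the median of all genes was 0.15 lower. With limma on log2(FPKM + 1) PLAU was at 0.71. The number of genes called ran from 11882 to 13458. Depth limits PLAU most, with 22 counts in its lowest library. No paired analysis was possible because no label ties the column numbers C4 to C6 of the hypoxia libraries to replicate numbers.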
